A study of Mus musculus with 12 samples.

Results

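Primordial germ cell-like cells (PGCLCs) of a TKO line were compared with PGCLCs of wild type (WT), both from stem cells primed for 40 h. The comparison rests on 6 of the 12 RNA sequencing libraries in the series, 3 of TKO and 3 of WT. Libraries were chosen by their titles, so no measured value chose them, and all 16178 genes that passed a filter on low counts were tested. PGCLCs are cultured cells that resemble the founders of the germline. Both lines derive from E14TG2a mouse embryonic stem cells, which were grown with LIF, the 2i inhibitors and vitamin C. The label TKO stands alone; from the study, it means that Dnmt1, Dnmt3a and Dnmt3b were all knocked out. Cells passed through 40 h as epiblast-like cells (EpiLCs) and then 4 days as aggregates with BMP4, BMP8, SCF, EGF and LIF. TKO PGCLCs primed for 48 and 96 h, with 3 libraries each, entered the same fit, and some of their values are given for reference.

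The titles name no separate clones, so any other difference between the WT and TKO lines cannot be told apart from the knockouts. Replicates are called biological, with no word on whether cultures were separate. The p-values come from a fit of all 12 libraries. They set differences against the spread between replicates in every group, including the TKO groups outside the comparison. The protocols end with dissociation for flow cytometry and RNA extraction from cell pellets, without saying whether the cells sequenced were sorted or whole aggregates. Fewer cells of a type and less RNA per cell cannot be told apart in such bulk samples.

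DNA methylation in mammals is laid down by DNMT3A and DNMT3B, helped by the inactive cofactor DNMT3L, and copied at each cell division by DNMT1. Germ cell precursors of the embryo lose most of this methylation, including at imprinted genes, which are expressed from 1 parental copy, and at a set of germline gene promoters that methylation keeps silent in other cells. Stem cells without the enzymes can be grown, which allows PGCLCs to be made with no DNA methylation from the start.

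Total estimated counts per library were 7535501 to 8798136 in TKO and 7389986 to 9114128 in WT. Genes with at least 10 counts numbered 14698 to 15409 in TKO and 14840 to 15261 in WT libraries. Across genes, log2 CPM of replicates correlated at 0.972 to 0.973 in TKO and at 0.97 to 0.971 in WT, and no library of the 6 stood apart in depth or composition. Levels are given as CPM, counts scaled to a fixed depth with TMM library sizes and not to gene length, so they compare libraries and not genes. A value after ± is the SD over the 3 libraries for a mean CPM and the SE for a log2 fold change. Of the counts, mitochondrially encoded mRNAs held 1.18 to 1.35% in TKO and 1.39 to 1.5% in WT libraries. All 11 PGCLC markers looked up were counted in both groups. Prdm1, a repressor that specifies germ cells, averaged 20.9 CPM in TKO and 29.3 CPM in WT, Tfap2c, a factor needed for germ cell fate, 48.6 CPM in TKO and 46.7 CPM in WT, and Prdm14, their partner, 12.4 CPM in TKO and 16.2 CPM in WT. None of these 3 was called. Of the same 11 markers, Dppa3 was called higher and Kit lower in TKO, as given below. Levels of the remaining markers are not given here.

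Of the 16178 genes tested, 501 (3.1%) differed at a Benjamini-Hochberg adjusted p below 0.05 in edgeR's quasi-likelihood test, the rule behind every call below. TKO was higher for 262 of them (1.62% of the genes tested) and lower for 239 (1.48%). Differences were mostly small, with a median absolute log2 fold change of 0.78 among called genes; 168 reached 2-fold (1.04%), 99 of them higher and 69 lower, and 38 reached 4-fold, 30 of them higher and 8 lower. Replicates of TKO and WT did not overlap for any of the 501, against 4161 (25.7%) of all genes tested. The share called moved with the level: 0.489% of 4089 genes between 1 and 5 CPM, 4.4% of 5162 genes between 20 and 100 CPM and 6.71% of 2191 genes above 100 CPM. Protein-coding genes made up 250 of the higher and 236 of the lower calls (3.22% of 15113), and pseudogenes 11 and 2 (1.26% of 1032).

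**Figure D1:**
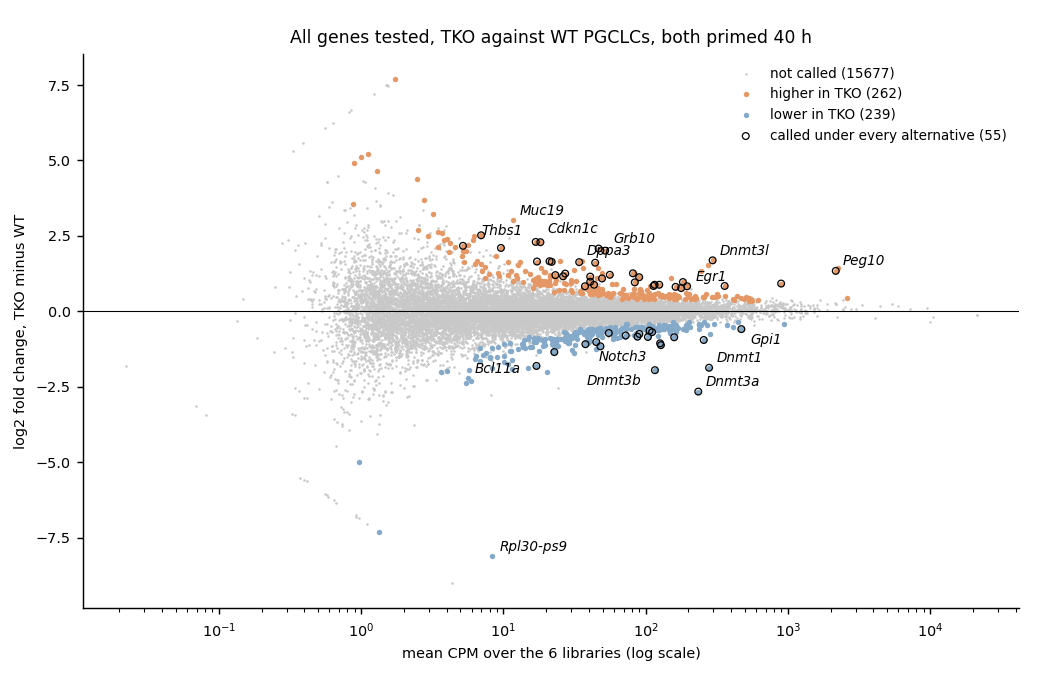
Log2 fold change, TKO minus WT (y axis), against the mean CPM over the 6 libraries on a log scale (x axis), 1 point per gene tested. Orange points are the 262 genes higher in TKO, blue points the 239 lower, and black rings mark the 55 called under every alternative; most called genes lie within 1 log2 unit of 0.

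How far each call held was recorded under 14 other settings of the fit. When the effective length of the transcripts in each library was taken into account, 73 genes were called, 70 of them among the 501. Whichever 1 of the 6 libraries was left out, 112 genes (61 higher, 51 lower) kept the call, and 55 (35 higher, 20 lower) were called under all 14 alternatives. Those 55 are described as held throughout. Every other gene named below as called lost its call with the length offset, except Kit, whose call ended without WT replicate 1, and Muc19, which is not protein coding and was not tested among protein-coding genes alone. Further losses are given beside the genes they concern, with the highest adjusted p reached; a call that ended without any library ended whichever 1 of the 6 was left out.

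The targeted genes were lower in all 3 TKO libraries, and transcripts of each were still counted. The labels do not give the deleted exons, and counts over a whole gene do not show which transcripts carry a deletion. Dnmt1, the maintenance enzyme (chromosome 9, 20907209 to 20959888, GRCm38), had 130.4, 116 and 115 CPM in TKO, against 441, 426 and 449.6 CPM in WT. Dnmt3a, a de novo enzyme (chromosome 12, 3806007 to 3914443), had 66.1, 67 and 59.7 CPM in TKO, against 358, 436 and 422 CPM in WT. Dnmt3b, which also methylates de novo (chromosome 2, 153649450 to 153687730), had 39, 49.2 and 55.4 CPM in TKO, against 157, 215 and 183 CPM in WT. The highest TKO library lay below the lowest WT library for each of the 3. Log2 fold changes were -1.87 ± 0.16 for Dnmt1, -2.66 ± 0.17 for Dnmt3a and -1.95 ± 0.17 for Dnmt3b (SE, n = 3 each; edgeR adjusted p = 9.9e-07, 3e-08 and 9.9e-07). Dnmt3l, the inactive cofactor (chromosome 10, 78041947 to 78063622), had 465, 441 and 450.5 CPM in TKO, against 154, 132 and 135 CPM in WT. That is a rise of 1.69 ± 0.12 on the log2 scale (adjusted p = 6.2e-08), and TKO cells primed for 48 and 96 h averaged 335 and 168 CPM. All 4 calls held throughout. The other 24 of 28 genes of the methylation and demethylation machinery were not called, and the median log2 fold change of the list was -0.03, against -0.00 over all genes.

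The transcripts that make up the remaining Dnmt signal were read from the TPM of each annotated transcript, as its share of the gene's summed TPM. Dnmt3b-202 took 38.4, 21.7 and 26.9% of the Dnmt3b TPM in TKO, against 71.3, 63.9 and 50.6% in WT. Dnmt3b-211, annotated as a retained intron, took 38.5, 52.5 and 33.9% in TKO, against 7.99, 4.1 and 16.8% in WT. Neither set of shares overlapped, but the test of transcript usage did not call the gene (adjusted p = 0.84). Dnmt1-206, also annotated as a retained intron, took 22.5, 15.1 and 14.2% of the Dnmt1 TPM in TKO, against 3.19, 5.26 and 8.63% in WT, and Dnmt1-202 took 1.26, 2.66 and 7.48% in TKO, against 10.9, 9.9 and 16.6% in WT. These did not overlap. Shares of Dnmt1-205, the Dnmt1 transcript of largest mean share, did, with 30.7, 46.9 and 50.7% in TKO and 50.8, 54.8 and 28.2% in WT. So did those of Dnmt1-201, with 30.3, 28.8 and 22.5% in TKO and 33.7, 26.9 and 42.6% in WT. The test of transcript usage did not call Dnmt1 (adjusted p = 0.75). For Dnmt3a, also not called (adjusted p = 1.0), Dnmt3a-209 took 13.2, 4.54 and 7.17% in TKO, against 2.72, 1.41 and 0.719% in WT, and Dnmt3a-215, annotated for nonsense-mediated decay, 6.8, 0 and 15.9% in TKO, against 18.4, 18.8 and 22% in WT. The most abundant Dnmt3a transcript, Dnmt3a-205, overlapped, with 46.6, 57 and 51% in TKO and 45.8, 60.3 and 55.8% in WT. Shares are relative to the gene's summed TPM, so a higher share need not mean more of the transcript. Dnmt1-206 averaged 5.72 TPM in TKO and 5.26 TPM in WT, and Dnmt3a-209 1.24 TPM in TKO and 1.3 TPM in WT. Dnmt3b-211 averaged 6.04 TPM in TKO and 3.04 TPM in WT. It rested on 28, 55 and 48 estimated counts in TKO and 18, 10 and 39 in WT.

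**Figure D2:**
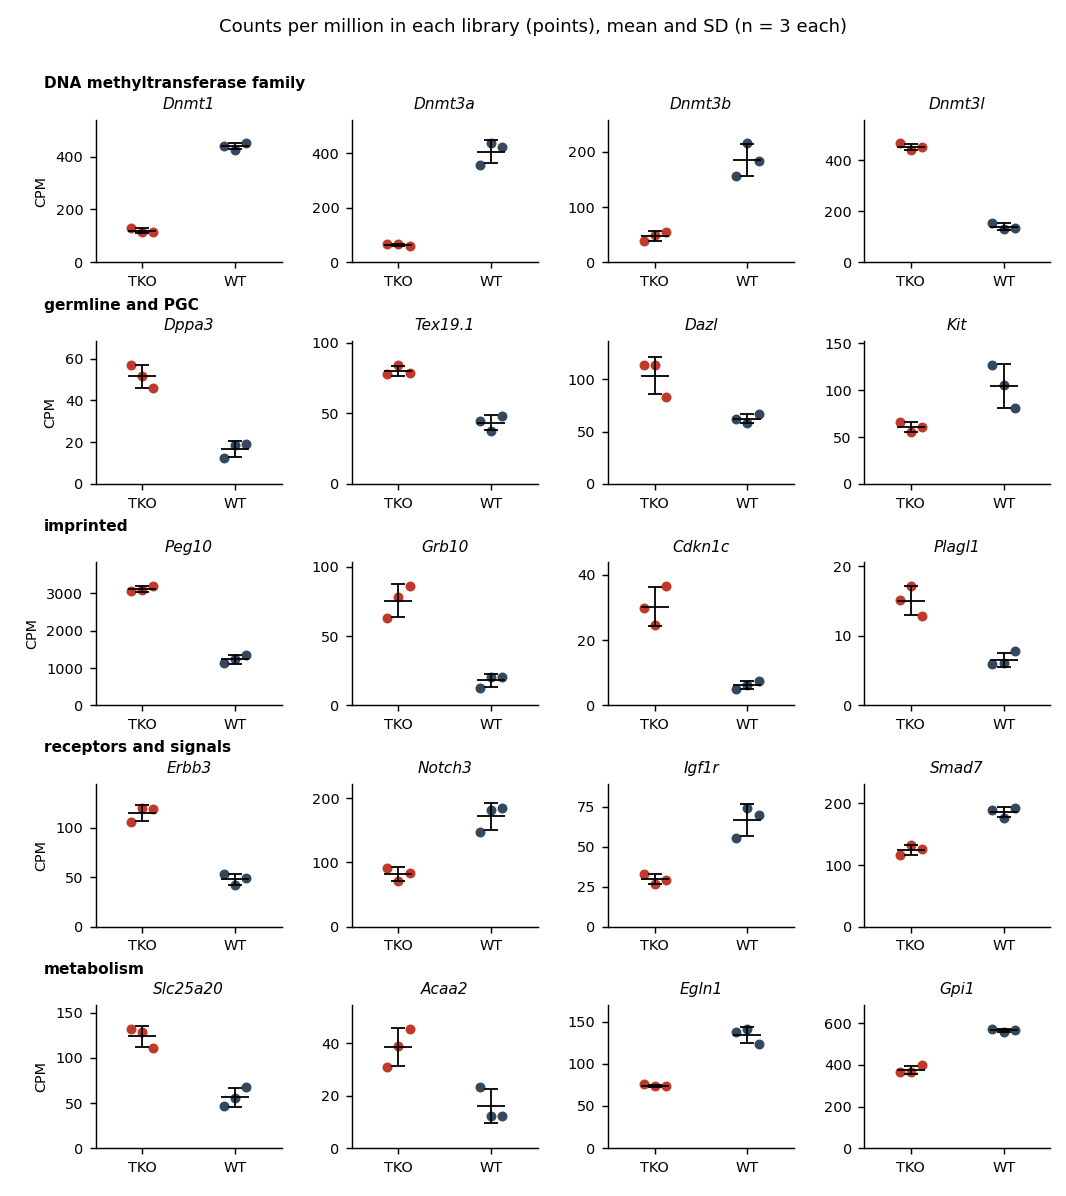
CPM in each of the 3 TKO (left, red) and 3 WT (right, dark blue) libraries for 20 genes in 5 rows by role; the long bar is the mean and the whiskers are the SD (n = 3 each), and each panel has its own axis from 0. All 20 genes were called, and no called gene had overlapping groups, so the lack of overlap in every panel follows from the choice. Of all genes tested, 25.7% had no overlap. Panels run from Plagl1, with TKO at 12.9 to 17.1 CPM and WT at 5.9 to 7.74 CPM, to Peg10, with TKO at 3054 to 3191 CPM and WT at 1122 to 1350 CPM.

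Gene lists are described below by how many of their tested members were called, to be read against 1.62% of all genes called higher and 1.48% called lower, and by their median log2 fold change, against -0.00 over all genes. No list was tested as a set. List members were chosen with earlier results of these data known, so a share above that of all genes may be partly built in. The share called also rose with the level of a gene, so the share over all genes is not matched to any list. Germ cell genes were called in both directions. Dppa3, a maternal and germline protein that protects or removes methylation in early embryos, had 57, 51.6 and 46.1 CPM in TKO, against 12.4, 18.8 and 19.1 CPM in WT. Its rise of 1.63 ± 0.2 (log2, adjusted p = 0.00015) held throughout. Tex19.1, a germline gene for transposon control, had 77.8, 84.4 and 78.4 CPM in TKO, against 44.5, 37.4 and 47.8 CPM in WT (0.89 ± 0.12, adjusted p = 0.00034; 0.057 with the length offset). Dazl, an RNA-binding protein of germ cells, had 114, 114 and 82.9 CPM in TKO, against 62, 58.6 and 67 CPM in WT (0.73 ± 0.14, adjusted p = 0.0068; 0.12 with the length offset). TKO replicate 3 was the lowest of the TKO libraries for Dazl and Dppa3, yet above every WT library. Kit, the receptor for the SCF in the medium, had 65.9, 55.4 and 61.2 CPM in TKO, against 127, 105 and 80.6 CPM in WT (-0.78 ± 0.15, adjusted p = 0.0065). WT libraries spread widely for Kit, and its adjusted p was 0.054 without WT replicate 1. Meioc, which carries germ cells into meiosis, averaged 27.4 ± 4.78 CPM in TKO and 46.4 ± 4.77 CPM in WT, and Sohlh2, a factor of early gonadal germ cells, 53.7 ± 12.5 CPM in TKO and 80.3 ± 8.46 CPM in WT (adjusted p = 0.037 and 0.046). Meioc lost its call without any one of the 6 libraries (adjusted p at most 0.18), and Sohlh2 without any but TKO replicate 2 (at most 0.24).

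Among 36 tested meiosis and germline genes under methylation control, Tex19.1 and Dazl were called higher and Meioc and Sohlh2 lower, with a median of -0.04. In the list of 19 PGC specification genes, Dppa3 was called higher and Kit lower (median 0.06). None of 16 transposon defence genes was called, among them Rnf17, a tudor protein of germ cells, at 141 ± 3.4 CPM in TKO and 142 ± 8.98 CPM in WT, and Morc1, a silencer of transposons, at 109 ± 14.2 CPM in TKO and 111 ± 5.96 CPM in WT. From the Dppa and Tcl1 families, 3 of 8 were higher: Dppa3, Dppa4 (127 ± 7.01 CPM in TKO and 88.7 ± 2.2 CPM in WT, adjusted p = 0.017) and Dppa2 (192 ± 11.3 CPM in TKO and 139 ± 11.7 CPM in WT, adjusted p = 0.038), the last pair being chromatin partners that prime developmental genes. Dppa4 lost its call without any library but TKO replicate 1 (adjusted p at most 0.081) and Dppa2 without any library (at most 0.18).

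Promoter sequence was looked up for the 6 genes of smallest adjusted p among those of the germline and imprinted lists called higher in TKO, which were Grb10, Peg10, Cdkn1c, Dppa3, Tex19.1 and Dazl. Of these, 3 matched an entry by symbol in the RefSeq table for GRCm38.p6: Grb10, Tex19.1 and Dazl. The 250 bases before each start are shown because CG dinucleotides, the main sites that these enzymes methylate, can be counted in them; CG is in capitals. In the 300-base window that also takes 50 bases after the start, Grb10 (chr11:12037421-12037670, minus strand, for the bases shown) held 45 CG on 1 strand, and 1.93% of the 32851 windows in the table held as many or more. Tex19.1 (chr11:121145893-121146142, plus strand) held 16 (33.0% of windows), and Dazl (chr17:50293621-50293870, minus strand) held 28 (14.2% of windows). No methylation was measured in these libraries.
Grb10: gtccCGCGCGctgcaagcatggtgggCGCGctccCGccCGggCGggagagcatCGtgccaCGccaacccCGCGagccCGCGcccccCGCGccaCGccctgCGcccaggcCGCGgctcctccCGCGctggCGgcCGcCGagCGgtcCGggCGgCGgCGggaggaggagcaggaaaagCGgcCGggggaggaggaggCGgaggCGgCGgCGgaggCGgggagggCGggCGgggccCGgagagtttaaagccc
Tex19.1: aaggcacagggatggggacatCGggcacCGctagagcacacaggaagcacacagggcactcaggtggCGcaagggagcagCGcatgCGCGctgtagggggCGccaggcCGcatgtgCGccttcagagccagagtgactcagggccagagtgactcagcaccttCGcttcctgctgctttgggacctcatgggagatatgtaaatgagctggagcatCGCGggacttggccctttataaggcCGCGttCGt
Dazl: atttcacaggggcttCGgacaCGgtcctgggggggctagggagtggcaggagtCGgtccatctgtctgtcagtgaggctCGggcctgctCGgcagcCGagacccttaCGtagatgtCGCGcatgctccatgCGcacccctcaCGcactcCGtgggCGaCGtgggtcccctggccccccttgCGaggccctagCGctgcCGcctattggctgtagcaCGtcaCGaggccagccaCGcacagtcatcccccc

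Imprinted genes held some of the largest rises. Peg10, a paternally expressed gene of retrotransposon origin needed for the placenta, had 3054, 3104 and 3191 CPM in TKO, against 1122, 1229 and 1350 CPM in WT (1.34 ± 0.12, adjusted p = 2.2e-06). Grb10, an adaptor that limits growth factor signalling, had 62.9, 78 and 86 CPM in TKO, against 12.8, 20.6 and 20.5 CPM in WT (2.08 ± 0.18, adjusted p = 9.9e-07). Cdkn1c, an inhibitor of cyclin-dependent kinases, had 29.7, 24.6 and 36.5 CPM in TKO, against 5.01, 6.14 and 7.46 CPM in WT (2.29 ± 0.27, adjusted p = 8.7e-05). These 3 calls held throughout, with every TKO library well above every WT library. In TKO cells primed for 48 and 96 h, Peg10 averaged 1811 and 416 CPM, Grb10 58.6 and 41.4 CPM, and Cdkn1c 23.9 and 21.1 CPM. Plagl1, a zinc-finger gene at the head of an imprinted network, averaged 15 ± 2.11 CPM in TKO and 6.55 ± 1.03 CPM in WT (1.2 ± 0.27, adjusted p = 0.019), but its log2 fold change was -0.09 with the length offset. Peg3, another paternally expressed gene, had 424, 402 and 309.9 CPM in TKO, against 221, 261 and 287 CPM in WT (0.56 ± 0.15, adjusted p = 0.041). Plagl1 lost its call without TKO replicate 1 or 2 or WT replicate 1 or 2 (at most 0.094) and Peg3 without any library but TKO replicate 3 (at most 0.2). In all, 3 of 25 paternally expressed genes (median 0.02) and 2 of 15 maternally expressed genes (median 0.04) were called, all higher, against 1.62% of all genes higher.

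Chromatin regulators changed singly. L3mbtl2, the core subunit of the PRC1.6 complex that silences germline genes, had 249.7, 232 and 246 CPM in TKO, against 136, 125 and 110.1 CPM in WT (0.97 ± 0.13, adjusted p = 0.00022), held throughout, and was the single call among 16 PRC1.6 and germline repressor genes (median 0.01). Ctcfl, the germline paralogue of the insulator protein CTCF, had 24.6, 24.3 and 29.6 CPM in TKO, against 7.46, 10 and 7.6 CPM in WT (1.65 ± 0.26, adjusted p = 0.0013), also held throughout. Cbx5, which encodes the heterochromatin protein HP1 alpha, had 213, 218 and 208 CPM in TKO, against 359, 355 and 350.4 CPM in WT (-0.74 ± 0.09, adjusted p = 0.00018). Epop, a PRC2-associated protein, averaged 357 ± 8.6 CPM in TKO and 254 ± 7.62 CPM in WT (0.49 ± 0.11, adjusted p = 0.022); its call ended without any one library (at most 0.11). Cbx5 and Epop were the 2 calls among 20 PRC2 and H3K9 methylation genes (median 0.07). Replicates of Cbx5 and Epop lay close together. Hist1h1t, the testis-specific linker histone gene, averaged 31.7 ± 1.87 CPM in TKO and 14.2 ± 2.9 CPM in WT (adjusted p = 0.018; without any library but WT replicate 1, at most 0.097), the single call among 66 histone genes (median 0.1).

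Pluripotency genes of both naive and later epiblast states appeared among the calls. Zfp42, a naive marker, averaged 517 ± 13.1 CPM in TKO and 365 ± 43.9 CPM in WT (0.5 ± 0.1, adjusted p = 0.009), and Gbx2, a factor that can hold the naive state, 45.8 ± 3.99 CPM in TKO and 27.1 ± 6.26 CPM in WT (0.76 ± 0.2, adjusted p = 0.042). Jam2, a junction protein, averaged 20.7 ± 2.74 CPM in TKO and 32.9 ± 2.81 CPM in WT (-0.67 ± 0.16, adjusted p = 0.023), and Nr5a2, a nuclear receptor, 42.9 ± 4.89 CPM in TKO and 62.9 ± 4.83 CPM in WT (-0.56 ± 0.13, adjusted p = 0.025). The list of 20 naive genes thus had 2 higher and 2 lower, with a median of -0.01. Of 21 formative and primed genes 3 were higher and 1, the targeted Dnmt3b, lower (median 0.11). Fgf5, a growth factor of the epiblast, had 24.6, 26.6 and 31 CPM in TKO, against 8.79, 12.5 and 12 CPM in WT (1.3 ± 0.26, adjusted p = 0.009). Pou3f1, an epiblast factor, averaged 39.4 ± 8.78 CPM in TKO and 20.6 ± 3.57 CPM in WT (adjusted p = 0.028). Fgf5 averaged 10.2 and 1.94 CPM in TKO cells primed for 48 and 96 h. Without single libraries, calls ended for Zfp42 (WT replicate 2 or 3, at most 0.069), Gbx2 and Jam2 (any library, at most 0.2 and 0.13), Nr5a2 (any but TKO replicate 1, at most 0.13), Fgf5 (TKO replicate 3 or WT replicate 1, at most 0.059) and Pou3f1 (TKO replicate 2 or 3 or WT replicate 1 or 3, at most 0.13).

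The response genes of the BMP signal that induces PGCLCs were lower where they were called: 4 of 14 fell, against 1.48% of all genes lower, none rose, and the median was -0.32. Smad7, a feedback inhibitor of BMP and TGF-beta signalling, had 116, 132 and 126 CPM in TKO, against 189, 177 and 193 CPM in WT (-0.58 ± 0.11, adjusted p = 0.0058). The Id genes encode inhibitors of basic helix-loop-helix factors. Id2 averaged 25.9 ± 9.02 CPM in TKO and 53.1 ± 9.15 CPM in WT (-1.04 ± 0.23, adjusted p = 0.016), Id1 34 ± 10.8 CPM in TKO and 58.9 ± 5.01 CPM in WT (-0.79 ± 0.18, adjusted p = 0.018), and Id4 3.17 ± 0.825 CPM in TKO and 9.53 ± 2.48 CPM in WT (-1.58 ± 0.4, adjusted p = 0.038). TKO replicate 3 was the lowest library for Id1 and Id2, at 23 and 16.3 CPM. Smad7 kept its call without each library, Id2 lost it without TKO replicate 1 or 3 or WT replicate 2 or 3 (at most 0.081), Id1 without TKO replicate 1 or 3 or WT replicate 1 or 3 (at most 0.095), and Id4 without any library (at most 0.16).

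In the Notch pathway 3 of 15 genes fell and 1 rose (median -0.06), against 3.1% of all genes called. Notch3, a receptor, had 91, 70.8 and 83.9 CPM in TKO, against 147, 182 and 185 CPM in WT (-1.06 ± 0.13, adjusted p = 0.00014), which held throughout. Notch4, another receptor, averaged 12.6 ± 6.12 CPM in TKO and 31.9 ± 6.71 CPM in WT, the target gene Hes1 11.2 ± 2.41 CPM in TKO and 22.5 ± 3.87 CPM in WT (adjusted p = 0.022 for both), and Rbpj, the DNA-binding partner of the receptors, 596 ± 11.6 CPM in TKO and 469.8 ± 6.3 CPM in WT (0.34 ± 0.09, adjusted p = 0.038). Calls ended without single libraries for Notch4 (TKO replicate 1 or 3 or WT replicate 1 or 2, at most 0.11), Hes1 (any but TKO replicate 1 and WT replicate 1, at most 0.12) and Rbpj (any, at most 0.14; also with no filter on low counts). Rara, a retinoic acid receptor gene, had 41.1, 37.3 and 44.5 CPM in TKO, against 90.5, 70.9 and 72.8 CPM in WT (-0.93 ± 0.16, adjusted p = 0.0022; 0.06 with the length offset), the single call among 16 genes of that pathway (median 0.03).

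Of the other signalling lists, the Nodal pathway had the largest share called. It had 1 of 13 genes higher and 2 lower (23.1%, median -0.21), against 3.1% of all genes called. Axin2, a negative feedback target of WNT signalling, averaged 28 ± 4.95 CPM in TKO and 14.1 ± 3.23 CPM in WT (0.99 ± 0.24, adjusted p = 0.032; 1 of 14 WNT genes, median 0.29). In the Nodal pathway Pcsk6, a convertase that activates Nodal, was higher at 83 ± 5.3 CPM in TKO and 56.8 ± 7.92 CPM in WT, and the inhibitor Lefty1 was lower at 76.6 ± 6.44 CPM in TKO and 113 ± 3.98 CPM in WT (adjusted p = 0.03 for Pcsk6 and 0.043 for Lefty1). Axin2, Pcsk6 and Lefty1 lost the call without most single libraries: Axin2 and Lefty1 without any (at most 0.17 and 0.19), and Pcsk6 without any but WT replicate 1 (at most 0.17). Egr1, an immediate early gene of growth factor signalling, had 287, 249 and 217 CPM in TKO, against 140.1, 134 and 149 CPM in WT (0.83 ± 0.14, adjusted p = 0.0028), which held throughout, and was the 1 call among 20 immediate early genes (median 0.3). None of 15 ERK feedback genes was called (median 0.0); Etv5 averaged 343 ± 11.9 CPM in TKO and 319 ± 11.2 CPM in WT.

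Receptors and signalling genes outside the lists were chosen after their values were seen, from the 55 that held throughout. Erbb3, a partner receptor of the EGF receptor family, had 106, 120.3 and 119 CPM in TKO, against 52.9, 42.1 and 48.8 CPM in WT (1.26 ± 0.16, adjusted p = 0.0002). Plcg2, a phospholipase that relays receptor signals, had 141, 159.6 and 138 CPM in TKO, against 75.3, 91 and 78.1 CPM in WT (0.84 ± 0.13, adjusted p = 0.0013). Both were higher in each TKO library than in any WT library. Igf1r, the receptor for insulin-like growth factors, had 33.3, 26.8 and 29.4 CPM in TKO, against 55.4, 74.5 and 69.8 CPM in WT (-1.16 ± 0.18, adjusted p = 0.0011). Lrp1, a large endocytic receptor, had 167, 181 and 177 CPM in TKO, against 354, 314 and 347 CPM in WT (-0.95 ± 0.11, adjusted p = 6e-05). Igf1r and Lrp1 were lower in each TKO library than in any WT library.

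Egln1, an oxygen sensor that marks hypoxia-inducible factors for removal, had 75.5, 73.1 and 73.9 CPM in TKO, against 137, 141 and 123 CPM in WT (-0.85 ± 0.11, adjusted p = 0.00022). Gpi1, a glycolytic isomerase, had 367, 364 and 398 CPM in TKO, against 572, 559 and 570.1 CPM in WT (-0.59 ± 0.09, adjusted p = 0.0015). Both fell in each library and held throughout. Pfkfb3, which makes an activator of glycolysis, averaged 42.2 ± 6.39 CPM in TKO and 75 ± 11.6 CPM in WT (adjusted p = 0.0065; at most 0.053 without TKO replicate 1 or WT replicate 1), and Bnip3l, a mitophagy receptor, 102 ± 8.22 CPM in TKO and 144 ± 6.62 CPM in WT (adjusted p = 0.019; at most 0.11 without any library but TKO replicate 3). Of 24 hypoxia targets 2 were called, both lower (median -0.24), and 2 of 20 glycolysis genes, both lower (median -0.16), against 1.48% of all genes lower. Bhlhe40, a circadian repressor also known as a hypoxia target and chosen after its values were seen, had 88.3, 75.5 and 78.7 CPM in TKO, against 166, 184 and 177 CPM in WT (-1.12 ± 0.13, adjusted p = 5.2e-05). In TKO cells primed for 48 and 96 h, Egln1 averaged 175 and 35.4 CPM, Gpi1 628 and 208 CPM, Pfkfb3 83.4 and 13.9 CPM, and Bhlhe40 224 and 22.4 CPM. For all 4 the mean at 48 h lay above the WT mean and that at 96 h below the TKO mean at 40 h.

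The next 5 genes held throughout and were chosen after their values were seen; no list of lipid use was made. Slc25a20, the mitochondrial carnitine carrier, had 132, 129 and 111 CPM in TKO, against 46.5, 55.7 and 67.3 CPM in WT (1.13 ± 0.16, adjusted p = 0.00035). Acaa2, a thiolase of fatty acid oxidation, had 31, 39.1 and 45.4 CPM in TKO, against 23.5, 12.1 and 12.4 CPM in WT (1.25 ± 0.22, adjusted p = 0.003). Both were higher in every TKO library than in any WT library. Fabp3, a fatty acid carrier, had 23.9, 27.8 and 20.9 CPM in TKO, against 60.2, 50.6 and 43.3 CPM in WT (-1.09 ± 0.17, adjusted p = 0.0014). Lpin1, a phosphatidate phosphatase, had 28.6, 33.8 and 27.1 CPM in TKO, against 64.8, 49.4 and 66.7 CPM in WT (-1.02 ± 0.2, adjusted p = 0.0069). Ephx2, an epoxide hydrolase, had 11.6, 14.9 and 12.1 CPM in TKO, against 33.8, 27.2 and 37.4 CPM in WT (-1.35 ± 0.21, adjusted p = 0.0014). Fabp3, Lpin1 and Ephx2 were lower in every TKO library than in any WT library. None of 29 cholesterol and fatty acid synthesis genes was called (median -0.12, with 21 below 0): Fasn, the fatty acid synthase, averaged 523 ± 28.2 CPM in TKO and 597 ± 37.8 CPM in WT, and Scd2, a desaturase, 548 ± 14.7 CPM in TKO and 549 ± 43.8 CPM in WT. Ogdhl, a paralogue of the oxoglutarate dehydrogenase subunit, and Chchd10, a mitochondrial protein of the intermembrane space, were lower, with fold changes on the log2 scale of -0.69 ± 0.12 and -0.86 ± 0.15 (adjusted p = 0.0024 for Ogdhl and 0.0028 for Chchd10). Ogdhl had 75.1, 93 and 86.9 CPM in TKO, against 145, 137 and 130.3 CPM in WT, and Chchd10 had 96.4, 121 and 122 CPM in TKO, against 214, 202 and 199 CPM in WT; both calls held throughout, and both genes were chosen after their values were seen.

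In serine, threonine and one-carbon metabolism 2 of 19 genes were called, both higher (median 0.05). Gldc, the glycine decarboxylase, averaged 195 ± 2.76 CPM in TKO and 135 ± 6.34 CPM in WT (0.53 ± 0.12, adjusted p = 0.017), and Mthfd2, a mitochondrial folate enzyme, 99.2 ± 2.95 CPM in TKO and 74 ± 4.4 CPM in WT (0.42 ± 0.11, adjusted p = 0.049). Both calls ended without any one library (at most 0.09 and 0.2), and that of Mthfd2 also with no filter on low counts. Respiratory chain genes were not called, either the 13 encoded in mitochondria (median -0.17; mt-Co1 at 3824 ± 276 CPM in TKO and 4425 ± 91.9 CPM in WT) or the 77 encoded in the nucleus (median 0.03). Gabarapl2, Calcoco2 and Atg13 were higher, held throughout and were chosen after their values were seen; no list of autophagy genes was made, and Bnip3l, given above, and Ei24, given below, were lower. Gabarapl2, a protein conjugated to autophagosome membranes, had 155, 147 and 148 CPM in TKO, against 81.1, 80.2 and 83.7 CPM in WT (0.88 ± 0.13, adjusted p = 0.00072). Calcoco2, a cargo receptor, had 81.1, 63 and 57.8 CPM in TKO, against 33.1, 26.8 and 35 CPM in WT (1.09 ± 0.15, adjusted p = 0.00036). Atg13, a subunit of the initiating kinase complex, had 49.5, 49.2 and 45.2 CPM in TKO, against 26.5, 28.2 and 26.4 CPM in WT (0.83 ± 0.15, adjusted p = 0.0037).

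Targets of p53 were lower where called: 3 of 25, against 1.48% of all genes lower, with none higher and a median of -0.24. Plk2, a stress-induced kinase, had 62.2, 65 and 69.1 CPM in TKO, against 109, 124 and 104 CPM in WT (-0.78 ± 0.15, adjusted p = 0.0067). Dcxr, a carbonyl reductase, averaged 12.7 ± 1.18 CPM in TKO and 24.6 ± 5.24 CPM in WT (adjusted p = 0.022; at most 0.14 without any library but WT replicate 3), and Ei24, an autophagy protein of the endoplasmic reticulum, 59.1 ± 6.49 CPM in TKO and 84.6 ± 8.43 CPM in WT (adjusted p = 0.038; at most 0.18 without any library). Among 41 cell cycle genes 4 were higher, against 1.62% of all genes, and none lower (median 0.13): Cdkn1c, Ccne1, Ccnb1 and Cdc20. Cyclin E1, from Ccne1, averaged 149 ± 3.9 CPM in TKO and 97 ± 3.72 CPM in WT, cyclin B1, from Ccnb1, 298 ± 5.93 CPM in TKO and 217 ± 7.33 CPM in WT, and the mitotic activator Cdc20 155 ± 9.9 CPM in TKO and 113 ± 7.65 CPM in WT (adjusted p = 0.013, 0.016 and 0.034). Cdkn1c restrains the cycle, while the other 3 drive it. Calls of Ccne1 (TKO replicate 1 or WT replicate 2 or 3, at most 0.068), Ccnb1 (any but WT replicate 1, at most 0.081) and Cdc20 (any, at most 0.15) ended without single libraries. The integrated stress response had no call among 21 genes (median 0.13). Heat shock proteins had 1 of 16, Hspb1, at 125 ± 10.5 CPM in TKO and 91.9 ± 4.5 CPM in WT (adjusted p = 0.038; at most 0.19 without any one library; median of the list 0.11).

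Epithelial junction and keratin genes had 6 of 26 members higher, against 1.62% of all genes higher, and none lower, with a median of 0.46. Grhl2, a transcription factor of epithelia that also stands in the formative list, had 76.4, 66.5 and 67.3 CPM in TKO, against 29.4, 23.8 and 34.5 CPM in WT (1.26 ± 0.17, adjusted p = 0.00024; 0.075 with the length offset). Esrp1, an epithelial splicing regulator, had 58.2, 57.3 and 53.3 CPM in TKO, against 21.4, 28.8 and 26 CPM in WT (1.15 ± 0.2, adjusted p = 0.0027), and held throughout. The lowest TKO library was above the highest WT library for both by a wide margin. Epcam, an epithelial adhesion protein, averaged 139 ± 6.88 CPM in TKO and 93.7 ± 8.22 CPM in WT, and Ocln, the tight junction protein occludin, 27.5 ± 0.847 CPM in TKO and 15 ± 3.68 CPM in WT (adjusted p = 0.017 and 0.023). Their calls ended without TKO replicate 2 or 3 or WT replicate 1 or 2 for Epcam (at most 0.1) and without any library but WT replicate 2 for Ocln (at most 0.11). Grhl2 averaged 29.7 and 26.1 CPM in TKO cells primed for 48 and 96 h, and Esrp1 46 and 9.51 CPM.

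Matrix genes moved both ways, 3 of 26 higher and 2 lower (median 0.2). Thbs1, the matrix glycoprotein thrombospondin 1, had 27.4, 29.6 and 27.3 CPM in TKO, against 5.01, 5.21 and 6.91 CPM in WT (2.3 ± 0.41, adjusted p = 0.0039), and held throughout. Lama1, a basement membrane laminin chain, had 59, 74 and 54.5 CPM in TKO, against 25.3, 32.3 and 28.5 CPM in WT (1.12 ± 0.19, adjusted p = 0.0029; 0.13 with the length offset). Fibronectin, from Fn1, averaged 813 ± 69.2 CPM in TKO and 1079 ± 23.6 CPM in WT, and its receptor subunit Itga5 59 ± 5.22 CPM in TKO and 87 ± 5.66 CPM in WT (adjusted p = 0.039 and 0.019). Fn1 lost its call without any library (at most 0.21) and Itga5 without TKO replicate 1 or 3 or WT replicate 2 or 3 (at most 0.1). Thbs1 averaged 7.94 and 0.645 CPM in TKO cells primed for 48 and 96 h. Of the cytoskeleton and matrix genes that held throughout, 3 were chosen after their values were seen. Actg1, cytoplasmic gamma actin, whose copies in the genome make its count uncertain, had 1312, 1207 and 1004 CPM in TKO, against 586, 618 and 663 CPM in WT (0.92 ± 0.13, adjusted p = 0.00048). Loxl2, which crosslinks collagen, had 65.4, 73 and 63.9 CPM in TKO, against 119.6, 114 and 107 CPM in WT (-0.75 ± 0.14, adjusted p = 0.0054), and Palld, an actin-bundling protein, had 79.9, 88 and 82.2 CPM in TKO, against 128, 132 and 130.2 CPM in WT (-0.64 ± 0.11, adjusted p = 0.0022).

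Cilium and motor genes were lower where called. Of 30 axonemal dynein and cilium genes 3 fell, against 1.48% of all genes lower, and none rose, with a median of -0.56, and 23 of the 30 had a log2 fold change below 0. The dynein heavy chains Dnah10 and Dnah2 averaged 1.99 ± 1.31 and 3.84 ± 0.2 CPM in TKO, against 9.85 ± 2.47 and 10.6 ± 1.08 CPM in WT, and the axonemal gene Ccdc113 2.03 ± 1.47 CPM in TKO and 9.36 ± 1.06 CPM in WT (adjusted p = 0.022, 0.023 and 0.046). All lay at low levels, and the calls ended without TKO replicate 1 or 3 or WT replicate 1 or 2 for Dnah10 (at most 0.099), without any library for Dnah2 (at most 0.09) and without any but TKO replicate 1 for Ccdc113 (at most 0.19), which also lost it with a replicate block. Of 34 kinesins 3 were lower (median -0.0): Kif1a, a motor of synaptic vesicles, at 4.75 ± 1.25 CPM in TKO and 15.5 ± 3.56 CPM in WT, Kif1c at 92.9 ± 5.18 CPM in TKO and 128 ± 12.4 CPM in WT and Kif21b at 16.1 ± 5.58 CPM in TKO and 31.4 ± 2.23 CPM in WT (adjusted p = 0.035, 0.024 and 0.049). Each of the 3 lost its call without most single libraries, at most 0.15 for Kif1a (any), 0.14 for Kif1c (any but WT replicate 3) and 0.22 for Kif21b (any but TKO replicate 3), which also lost it with RLE size factors.

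Lists of genes of other cell types had 3 called genes in all, each higher in TKO. Trophoblast and amnion genes summed to 180.1 to 199 CPM in TKO and 111 to 156 CPM in WT libraries, with 1 of 17 called (median 0.92), and mesoderm genes to 89.9 to 98.6 CPM in TKO and 55.4 to 59.7 CPM in WT, with 1 of 15 called (median 0.7). Hand1, a factor of mesoderm and placenta, was that call in both lists, with 7.88, 8.91 and 13.7 CPM in TKO, against 1.89, 1.33 and 2.76 CPM in WT (2.35 ± 0.43, adjusted p = 0.0047). Endothelium and blood genes summed to 151 to 176 CPM in TKO and 146 to 151 CPM in WT, with 2 of 17 called (median 0.81): Sox18, an endothelial factor, at 5.53, 2.53 and 7.45 CPM in TKO, against 0, 1.07 and 0.138 CPM in WT, and Cdh5, the endothelial cadherin, at 2.35, 1.86 and 3.37 CPM in TKO, against 0.111, 0.133 and 0 CPM in WT (adjusted p = 0.013 and 0.046). Sox18 lost its call without TKO replicate 3 or WT replicate 1 or 3 (at most 0.069) and Cdh5 without any library (at most 0.16) and with DESeq2. Some markers of mesoderm, trophoblast and endoderm were near 0. Mesp1 averaged 0.116 CPM in TKO and 0.0371 CPM in WT, and Mixl1 0.177 CPM in TKO and 0.138 CPM in WT. Cdx2 averaged 0.557 CPM in TKO and 0.171 CPM in WT, and Foxa2 0.487 CPM in TKO and 0.0461 CPM in WT. These were picked from longer marker sets, and Hand1, another mesoderm marker, averaged 10.2 CPM in TKO and 2 CPM in WT. Values of T, Elf5, Tfap2a, Krt8, Sox17, Gata4, Gata6 and Afp, also in those sets, are not given here. Endoderm genes summed to 328 to 408 CPM in TKO and 359 to 406 CPM in WT with none of 18 called (median 0.45), and neural genes to 147 to 172 CPM in TKO and 163 to 182 CPM in WT with none of 11 called (median 0.04). The part of such cells in the differences above was not tested.

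The 14 tested genes of the 2-cell-like state, such as the Zscan4 copies, all had log2 fold changes above 0 with a median of 1.2, and none was called; they summed to 273 to 353 CPM in TKO and 150.1 to 233 CPM in WT libraries. Zscan4f had 55.8, 31.6 and 35 CPM in TKO, against 13.4, 12.3 and 42.7 CPM in WT, so that WT replicate 3 overlapped TKO (adjusted p = 0.43), and near-identical copies make counts per copy uncertain. Interferon, nucleic acid sensing and MHC genes had 3 of 28 higher and 1 lower (median 0.24). The class I genes H2-D1 and H2-K1, which present peptides, and H2-Bl, annotated as a polymorphic pseudogene, share sequence, so that their counts are uncertain. H2-D1, H2-K1 and H2-Bl averaged 30.1 ± 5.75, 51 ± 7.8 and 6.73 ± 1.47 CPM in TKO, against 15.8 ± 2.72, 29.8 ± 4.31 and 1.27 ± 0.628 CPM in WT (adjusted p = 0.022, 0.042 and 0.027). Tap1, the peptide transporter, went down at 9.46 ± 1.26 CPM in TKO and 21.4 ± 8.14 CPM in WT (adjusted p = 0.031). Calls ended without single libraries for H2-D1 (TKO replicate 2 or 3 or WT replicate 1 or 3, at most 0.11), H2-K1 and H2-Bl (any, at most 0.18 and 0.12) and Tap1 (any but WT replicate 3, at most 0.16).

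Several families had no call or nearly none. Cytosolic ribosomal proteins had 0 of 83 called (median 0.09), proteasome subunits 0 of 47 (0.14), Hox genes 0 of 21 (0.36), clustered protocadherins 0 of 17 (-0.13), and X-linked Rhox, Xlr and Mage genes 0 of 17 (0.06), all by edgeR. Y-linked genes with Xist had 0 of 7 (median -0.27), where Ddx3y, a helicase, averaged 55.5 ± 2.77 CPM in TKO and 74.7 ± 5.46 CPM in WT without overlap (adjusted p = 0.051). For the lists with no call by edgeR, the members at an unadjusted p below 0.05 and the calls by DESeq2 were as follows. Transposon defence and protocadherin genes had 0 and 0, and 2-cell-like genes 6 and 2. Cholesterol and fatty acid genes had 4 and 1, stress response genes 4 and 0, ERK feedback genes 3 and 1, and mitochondrially and nuclear encoded respiratory chain genes 1 and 0 and 4 and 0. X-linked families had 4 and 1, Y-linked genes with Xist 3 and 3, Hox genes 2 and 0, endoderm genes 2 and 2, neural genes 3 and 0, ribosomal proteins 6 and 1, and proteasome subunits 7 and 1. Mitochondrial ribosomal proteins had 1 of 78, Mrps24, at 65.6 ± 4.26 CPM in TKO and 42.8 ± 9.19 CPM in WT (adjusted p = 0.034; at most 0.15 without any library but WT replicate 2; median of the list 0.08).

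**Figure D3:**
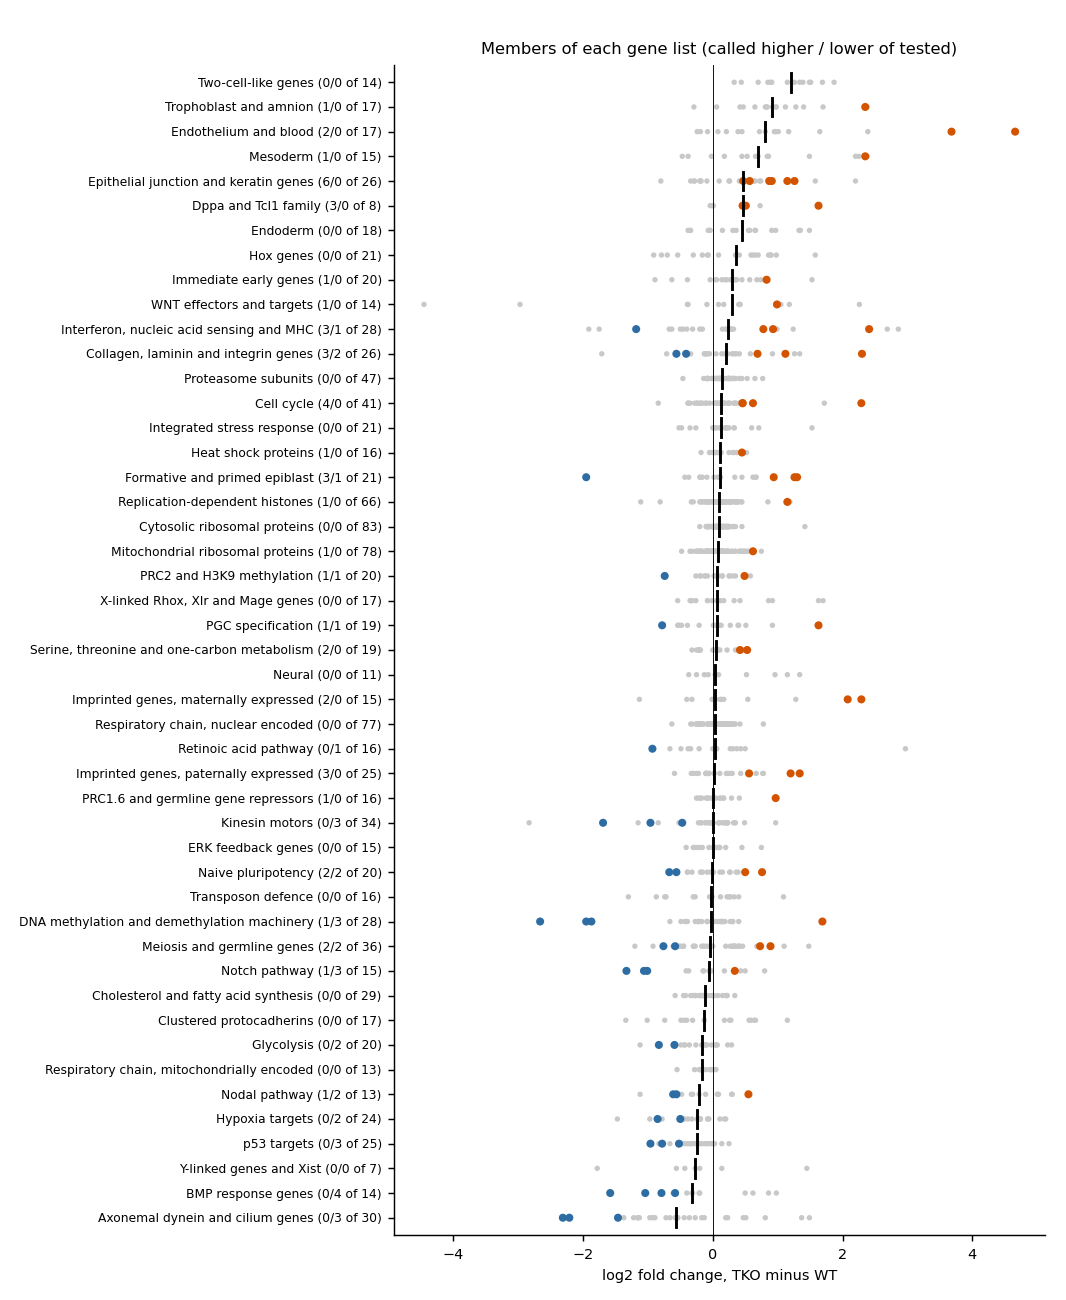
Log2 fold change, TKO minus WT (x axis), of each tested member (points) of the 47 gene lists (rows, ordered by median, black bars); orange members were called higher, blue lower, and the numbers beside each name are called higher and lower of those tested. Medians run from -0.56 for cilium genes to 1.2 for 2-cell-like genes, and in most lists few points are coloured.

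Some of the largest changes fell outside these groups. Among named genes that reached 10 CPM in 1 group, without overlap and with predicted genes left out, Muc19, a mucin gene annotated as a processed transcript, led the increases with 14.2, 18.3 and 29.9 CPM in TKO, against 1.89, 4.54 and 1.24 CPM in WT (3.02 ± 0.47, adjusted p = 0.0013). Dcdc2a, a doublecortin-family protein of microtubules, had 10.4, 9.7 and 15.6 CPM in TKO, against 2.11, 1.74 and 2.35 CPM in WT (2.52 ± 0.34, adjusted p = 0.00024). Cilp2, a matrix protein of cartilage, averaged 15.6 ± 7.22 CPM in TKO and 3.65 ± 0.458 CPM in WT (2.1 ± 0.35, adjusted p = 0.0023). Klhl13, an X-linked adaptor of a ubiquitin ligase, had 101, 76.7 and 72.4 CPM in TKO, against 20.9, 21.6 and 19.6 CPM in WT (2.01 ± 0.16, adjusted p = 7.2e-07), and Nrk, an X-linked kinase known from the placenta, 32.3, 32.3 and 31.8 CPM in TKO, against 9.13, 9.75 and 11.6 CPM in WT (1.66 ± 0.22, adjusted p = 0.00024). Dcdc2a, Cilp2, Klhl13 and Nrk held throughout. Plac9b, which has a near-identical neighbour, so that its counts are uncertain, averaged 16.3 ± 1.51 CPM in TKO and 5.19 ± 0.846 CPM in WT (adjusted p = 0.0091; 0.058 without WT replicate 2).

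Among the decreases, Bcl11a, a zinc-finger repressor of blood and brain, had 5.39, 6.65 and 10.6 CPM in TKO, against 29.6, 28.2 and 22.2 CPM in WT (-1.81 ± 0.28, adjusted p = 0.0013) and held throughout. Islr2, a membrane protein of neurons, averaged 4.84 ± 1.41 CPM in TKO and 18.2 ± 2.81 CPM in WT (adjusted p = 0.0013), and Prmt8, an arginine methyltransferase of the brain, 8.16 ± 2.7 CPM in TKO and 32.7 ± 2.73 CPM in WT (adjusted p = 0.0072). Grin1, a glutamate receptor subunit, averaged 6.29 ± 5.15 CPM in TKO and 23.5 ± 1.56 CPM in WT (adjusted p = 0.012), with TKO replicate 3 at 12.2 CPM. Irx3, a homeobox factor, averaged 4.91 ± 0.992 CPM in TKO and 16.6 ± 1.94 CPM in WT (adjusted p = 0.016), Hspa12a, a relative of heat shock proteins, 3.51 ± 1.58 CPM in TKO and 13 ± 3.49 CPM in WT (adjusted p = 0.02), and Hyal1, a hyaluronidase, 3.26 ± 0.922 CPM in TKO and 10.4 ± 1.31 CPM in WT (adjusted p = 0.0077). Without single libraries calls ended for Prmt8 (TKO replicate 1, 0.052), Grin1 (TKO replicate 1 or 2, at most 0.073), Irx3 (TKO replicate 1 or 2 or WT replicate 2 or 3, at most 0.083), Hspa12a (TKO replicate 1 or 3 or WT replicate 2 or 3, at most 0.1) and Hyal1 (TKO replicate 2, 0.051). The pseudogene Rpl30-ps9, a copy of a ribosomal protein gene whose counts are uncertain, had 0, 0.133 and 0 CPM in TKO, against 28.9, 15 and 5.94 CPM in WT (adjusted p = 0.018); its call ended without any library but WT replicate 3 (at most 0.09), with DESeq2 and with a robust fit.

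Changes were spread over the chromosomes. Median log2 fold changes of the autosomes ran from -0.038 (chromosome 6) to 0.027 (chromosome 13), and shares of genes called from 2.01% (chromosomes 3 and 18) to 4.42% (chromosome 15). On the X, 13 of 611 genes were higher and 5 lower (2.95%, median 0.031). The 18 tested genes of the Y had a median of -0.258, with deviations from WT of -0.258, -0.233 and -0.199 in the 3 TKO libraries, and 1 of them was called (5.56%). That gene, Uba1y, a ubiquitin-activating enzyme gene named after its values were seen, was lower at 16.5 ± 2.35 CPM in TKO and 31.2 ± 2.53 CPM in WT (adjusted p = 0.05 after rounding). Its call ended with RLE size factors (0.051) and without any one library (at most 0.19). Counted in 1 genotype alone, by at least 10 counts in each of its libraries and 0 in the other, were 2 genes of the X-linked ferritin-like Fthl17 cluster, whose near-identical copies make the assignment of reads uncertain. Fthl17e had 25, 33 and 22 counts in TKO and 0 in WT, which is at least 27.1-fold higher with a floor of 3 counts over the group. Fthl17d had 0 counts in TKO and 11, 19 and 31 counts in WT, which is at least 20-fold lower.

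Transcript usage asks whether the transcripts of 1 gene changed by different folds. In 9887 genes with at least 2 tested transcripts, 15 (0.152%) had an adjusted p below 0.05 (edgeR diffSpliceDGE, Simes test per gene), and 7 (0.0708%) also had a transcript whose share of the gene's TPM changed by at least 10 percentage points with no overlap between TKO and WT. The files hold no resampled estimates, so the error of assigning reads to similar transcripts is not in these p-values. Baz2a, a subunit of the complex that silences ribosomal RNA genes (chromosome 10, 128092783 to 128129303), stood first (adjusted p = 6.2e-05). Its transcript Baz2a-202 took 1.34, 0.859 and 0.0628% of the TPM in TKO, against 7.93, 22 and 21% in WT, on 50, 34 and 3 estimated counts in TKO and 445, 956 and 850 in WT. TKO cells primed for 48 h had 17.2, 37.3 and 9.18%, and those primed for 96 h 13.5, 4.41 and 14.8%, so shares near 0 were seen in the TKO libraries primed for 40 h alone of the 12. Baz2a-201 took 67.5, 60.9 and 59.6% in TKO and 58.2, 52.6 and 56.8% in WT.

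Baz2a-202 and Baz2a-201 differ by 3 bases at an alternative start of exon 6, within the coding sequence (GRCm38, chr10:128113460-128113462, plus strand). The junction is shown because only reads across it can tell these transcripts apart; 30 bases stand on each side, and the added bases are in capitals.
Baz2a-202: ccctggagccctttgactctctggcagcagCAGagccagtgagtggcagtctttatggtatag
Baz2a-201: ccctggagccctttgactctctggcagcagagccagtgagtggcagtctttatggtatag

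The other 6 calls rested on fewer estimated counts, though how many of the Baz2a counts came from reads across the junction is not known. Ptch1-207, of the hedgehog receptor gene, took 0% in each TKO library, against 9.16, 46.7 and 45.9% in WT, on 0 counts in TKO and 15, 131 and 127 counts in WT (adjusted p = 0.018). Rnf20-210, of a histone H2B ubiquitin ligase gene, took 6.23, 19.3 and 27.7% in TKO and 0% in each WT library (adjusted p = 0.02). Map4k5-201, of a kinase gene, took 0, 0.0592 and 0% in TKO, against 21.6, 43.2 and 5.72% in WT (adjusted p = 0.047). Socs6-202, of a signalling suppressor gene, was at 0% in each TKO library, against 9.68, 6.58 and 19% in WT (adjusted p = 0.046). Prmt3-206, annotated for nonsense-mediated decay, took 24.4, 17.7 and 7.22% in TKO and 0% in WT (adjusted p = 0.043), and Trmt1l-207, annotated likewise, 55.4, 0.0524 and 37.7% in TKO and 0% in WT (adjusted p = 0.046). TKO replicate 2 was thus near 0 for Trmt1l-207. In TKO cells primed for 48 h, Ptch1-207 took 29.2, 40.8 and 41.8%, and Rnf20-210 7.29, 5.38 and 0%; in those primed for 96 h, Ptch1-207 took 28.6, 40 and 49.4%, and Rnf20-210 0, 1.59 and 30.5%. Calls of Map4k5, Prmt3 and Socs6 ended without any one library (adjusted p at most 0.26, 0.38 and 0.28), that of Ptch1 without any but WT replicate 1 (at most 0.15), that of Rnf20 without any but TKO replicate 1 (at most 0.13) and that of Trmt1l without any but TKO replicate 2 (at most 0.27). Baz2a kept an adjusted p of at most 0.0033 whichever library was left out. With limma's diffSplice it reached 0.21, and Prmt3 alone of the 7 stayed below 0.05 (0.044). Under the replicate block, calls ended for Prmt3, Rnf20 and Socs6 (0.086 each) and Trmt1l (0.15). Calls also ended for Ptch1 and Trmt1l in the 6 libraries alone (0.072 and 1.0), and for both (1.0 each) and Map4k5 (0.05) among transcripts of at least 20 counts.

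**Figure D4:**
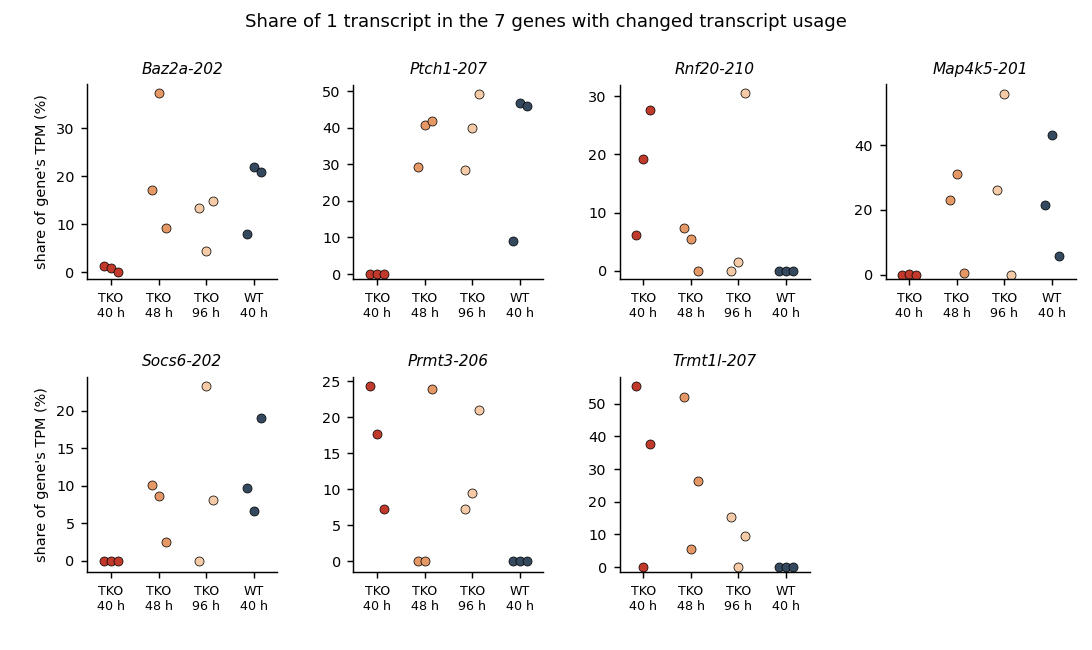
Share of the gene's TPM (y axis, %) of 1 transcript in each of the 7 genes with called usage, by group (x axis), 1 point per library: TKO primed for 40 h, 48 h and 96 h, then WT primed for 40 h. Baz2a-202 and Ptch1-207 lie at 0 to 1.34% in TKO primed for 40 h and at 7.93% or more in WT, while TKO primed for 48 and 96 h lies at 4.41% or more for both.

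**Figure D5:**
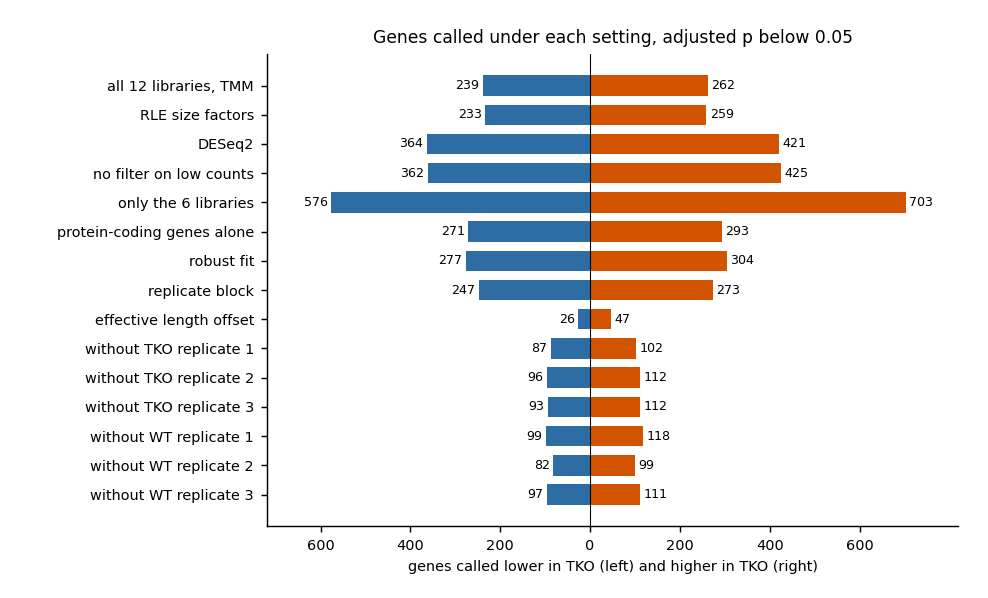
Genes called at an adjusted p below 0.05 (x axis: lower in TKO to the left, higher in TKO to the right) under each setting (rows). Counts are 262 higher and 239 lower in the fit of all 12 libraries, 703 and 576 in the fit of the 6 libraries, and 47 and 26 with the effective length offset.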

How the data were processed

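RNA of 12 libraries was read as estimated counts and TPM per transcript. Per the labels' protocols, DNase-treated total RNA went into the SMARTer Stranded Total RNA-Seq Pico kit. Per the submitters' processing notes, the authors trimmed reads with Trim Galore 0.6.2 and quantified them with kallisto on GRCm38 (mm10). The deposited estimated counts (expected counts) were made by the authors with kallisto and carry no scaling to depth. The TPM that the authors deposited are relative to effective length and to depth and served for transcript shares. The effective lengths in bases, a score per transcript in the deposited files, entered 1 alternative. Neither the kallisto version nor its transcript set is given in the sources used here.

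Of 119414 transcripts, 116728 (97.8%) matched GENCODE M21 by Ensembl ID without the version; unmatched ones held 2.95 to 3.23% of the counts in TKO and 3.18 to 3.36% in WT. Estimated counts were summed for 35975 genes and rounded. Genes were filtered with filterByExpr (minimum count 10, total 15). edgeR 4.0.16 fitted all 12 libraries with 1 mean per group, TMM and a quasi-likelihood F-test, two-sided, in R 4.3.3. The common biological coefficient of variation was 0.241. The SE of a log2 fold change was its size over the root of F. Alternatives were DESeq2 1.42.0, RLE size factors, the 6 libraries alone, no filter on low counts, protein-coding genes alone (leaving out Lars2, Ccnb1ip1 and Gm20594), a replicate block, an offset of effective length, each library left out and, chosen after seeing the data, a robust fit. Transcript usage was tested with diffSpliceDGE and, as alternatives, limma 3.58.1, transcripts of at least 20 counts, the block and left-out libraries. Scripts were tested on simulated data. PCR copies carry no molecular identifiers in these counts, so the floor of 3 counts covers counting error only.

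Members and the 47 gene lists (1257 genes found in the files) were chosen with earlier results of these data known. No list was tested as a set: counts called and medians are to be read against those of all genes. Genes were named by a rule: the 4 Dnmt genes, the 12 largest called changes each way of at least 10 CPM with no overlap and no predicted gene, up to 4 called members of each list by adjusted p (or the 2 of highest CPM where none was called), and up to 8 genes of changed transcript usage; 1 gene that the rule names is not reported here. A split of genes by promoter CG was void, since 78.9% of tested protein-coding genes had a RefSeq promoter entry, under the 80% set for it. Replicate numbers were not treated as pairs: deviations from group means of same-numbered libraries correlated at 0.007, -0.016 and -0.019. Plots were drawn with matplotlib 3.10.9.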

Additional observations from a re-analysis of the deposited data

How the results depend on the processing

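The 501 calls (262 higher, 239 lower) stayed within 1.5 times under RLE size factors (492), a robust fit (581), protein-coding genes alone (564) and the replicate block (520, with 273 higher and 247 lower, 467 of them among the 501). DESeq2 called 785 (421 higher, 364 lower), no filter on low counts 787 (425 and 362) and the 6 libraries alone 1279 (703 and 576). The effective length offset called 73 (47 and 26), and with it Plagl1 had a log2 fold change of -0.09 (adjusted p = 0.98); the cause was not tested. Leaving out 1 library gave 181 to 217 calls, with 99 to 118 higher and 82 to 99 lower. The 7 genes of changed usage became 12 at a minimum of 20 counts, 10 with limma (1 of them shared), 24 in the 6 libraries, 4 with the replicate block and 2 to 12 without 1 library. Over the named genes, 1333 of 1690 values under alternatives stayed on the same side of the threshold, 344 lost the call and 12 gained it. A change of direction was counted only where either fit called the gene, which held for 1 value. Among the 1333, direction may have changed where neither fit called the gene. Among chromosomes of genes with at least 5 CPM, the lowest autosome median was -0.024. The numbers pair no samples, so that calls lost under the block are not described as weaker. Low levels limit what was called: 0.463% of the 648 genes under 1 CPM.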

Other observations

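Genes of other roles were among the 55 calls that held under every setting, and those below were chosen after their values were seen. Noct, a clock-linked phosphatase, had 471, 464 and 450.2 CPM in TKO, against 241, 278 and 256 CPM in WT (log2 fold change 0.84 ± 0.1, edgeR adjusted p = 7.6e-05). Tchh, a structural protein of hair follicles, had 56.3, 64.3 and 79.2 CPM in TKO, against 16.1, 26.8 and 22.8 CPM in WT (1.61 ± 0.18, adjusted p = 6e-05). Nefh, the heavy neurofilament chain, had 105, 112 and 116 CPM in TKO, against 58.5, 61.1 and 52 CPM in WT (0.96 ± 0.13, adjusted p = 0.00024). Each of these 3 was higher in every TKO library than in any WT library.

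Atf5, a transcription factor of the stress response, had 34.6, 34 and 28.5 CPM in TKO, against 14.4, 12 and 15.9 CPM in WT (1.2 ± 0.2, adjusted p = 0.0018). Ddx19b, a helicase of mRNA export, had 206, 210.1 and 205 CPM in TKO, against 118, 109 and 128 CPM in WT (0.81 ± 0.11, adjusted p = 0.00024). Lower in TKO was Tenm3, an adhesion protein of neurons, with 66.8, 65.8 and 56.1 CPM in TKO, against 108, 117 and 113 CPM in WT (-0.84 ± 0.15, adjusted p = 0.0028). Helb, a DNA helicase, was also lower, with 40.1, 45.5 and 39.4 CPM in TKO, against 68, 76.9 and 61.1 CPM in WT (-0.72 ± 0.13, adjusted p = 0.0052). Vmn1r88, a member of the vomeronasal receptor family, whose related copies make its counts uncertain, had 31.5, 37 and 40.4 CPM in TKO, against 11, 19.9 and 18.2 CPM in WT (1.16 ± 0.2, adjusted p = 0.0024).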
